A study of Mus musculus with 2 samples.

Results

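The T cell checkpoint receptors and their ligands are 10 genes, taken by symbol from the 27998 genes of the 2 count matrices. Pdcd1, Ctla4, Icos, Havcr2, Lag3 and Tigit are the 6 receptors, and Cd274, Pdcd1lg2, Cd80 and Cd86 are the 4 ligands. All 10 had a row in both matrices. The data were single-cell RNA counts of dorsal skin that had healed from a large round wound with a diameter of 1.8 cm, and the comparison asked what activation of Toll-like receptor 9 (TLR9), a sensor of DNA, changed in the healed wound. Both groups were C57/BL6 mice of the genotype WT, described in the methods as males of 6 to 8 weeks, with no other allele. WT_LW wounds received PBS on days 0, 3 and 6, and TLR9agonist_LW wounds received ODN2395, a CpG oligonucleotide that activates TLR9, on the same days. The labels describe spraying and the paper dropwise addition, and part of the paper gives a control oligonucleotide in place of PBS for WT_LW. The centre of the wound was taken with a 5 mm punch 2 days after scab detachment. Cells of several mice were pooled into 1 library per group (6 mice in the results text and 5 samples in the methods), so no value below has a replicate, mice and treatment cannot be told apart, and no test between groups was possible.

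PD-1, encoded by Pdcd1, and CTLA-4 are receptors that restrain activated T cells, and TIM-3 (encoded by Havcr2), LAG-3 and TIGIT are further inhibitory receptors of T and NK cells. ICOS is a costimulatory relative of CD28 that T cells put on their surface once activated. PD-L1 (encoded by Cd274) and PD-L2 (encoded by Pdcd1lg2) are the ligands of PD-1, and CD80 and CD86 on antigen-presenting cells bind both the activating receptor CD28 and the inhibitory receptor CTLA-4. In skin, regulatory T cells are known for high CTLA-4 and ICOS, and IL-17-producing γδ T cells (γδT17 cells) live in the mouse dermis.

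In the GENCODE annotation of GRCm38 all 10 genes are protein coding. Pdcd1 lies at chr1:94038305-94052553 on the minus strand. Its ligand genes are neighbours on the plus strand of chromosome 19, Cd274 at chr19:29367455-29388095 and Pdcd1lg2 at chr19:29410919-29471161, with 22.8 kb between them. Ctla4 (chr1:60887000-60915832) and Icos (chr1:60977927-61000320), also neighbours, lie 62.1 kb apart on the plus strand. Lag3 lies at chr6:124904361-124911705, Tigit at chr16:43648867-43664146, Havcr2 at chr11:46454935-46481255, Cd80 at chr16:38455561-38496335 and Cd86 at chr16:36603869-36666081. RefSeq promoters of GRCm38.p6 matched 7 members, and those of Lag3, Icos and Cd86 were not matched. The promoters of PD-1 and its ligands are shown because Pdcd1 among the receptors and these 2 genes among the ligands differed most between the libraries in the cells that carry them. They are the 250 bases before the RefSeq start of each gene, which can differ from the GENCODE start given above. The windows lie at chr1:94052554-94052803 (minus), chr19:29367188-29367437 (plus) and chr19:29410669-29410918 (plus). They are printed 5′ to 3′ on the gene's own strand, with motif matches in capitals.
Pdcd1: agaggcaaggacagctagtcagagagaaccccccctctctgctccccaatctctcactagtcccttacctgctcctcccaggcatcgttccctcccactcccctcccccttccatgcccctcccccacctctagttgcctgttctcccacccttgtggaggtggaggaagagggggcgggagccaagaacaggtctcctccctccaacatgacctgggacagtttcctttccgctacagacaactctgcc
Cd274: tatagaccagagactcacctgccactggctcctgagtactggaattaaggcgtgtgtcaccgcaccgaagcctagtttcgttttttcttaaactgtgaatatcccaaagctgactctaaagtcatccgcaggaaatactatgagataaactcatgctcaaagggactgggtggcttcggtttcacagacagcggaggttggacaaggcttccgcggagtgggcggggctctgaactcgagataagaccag
Pdcd1lg2: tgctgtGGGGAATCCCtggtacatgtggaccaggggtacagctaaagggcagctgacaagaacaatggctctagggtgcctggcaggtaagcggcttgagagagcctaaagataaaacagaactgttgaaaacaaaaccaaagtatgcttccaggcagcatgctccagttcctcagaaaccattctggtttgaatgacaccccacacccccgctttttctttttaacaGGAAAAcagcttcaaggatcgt
Over both strands of these windows, 5 motifs were searched: GAS (TTCNNNGAA), ISRE (GAAA-NN-GAAA), AP-1 (TGANTCA), NFAT (GGAAAA) and NF-kB (GGG-NNNNN-CC). They matched 7.02%, 2.98%, 6.75%, 20.4% and 45.8% of all 32851 promoters, so a match to the last 2 is common. Pdcd1lg2 held an NF-kB match whose first base is at -244 and an NFAT match whose first base is at -22, counted from the RefSeq start. Neither the Pdcd1 nor the Cd274 window held any of the 5 motifs, which says only that these letters are absent from the window. Among the promoters not printed, Ctla4 and Tigit each held 1 NFAT match, Havcr2 held 1 AP-1 match, and Cd80 held 1 AP-1 match and 2 NF-kB matches. The windows of Ctla4 (chr1:60908775-60909024) and Cd80 (chr16:38458683-38458932) lie inside the GENCODE spans of these genes.

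After filtering and removal of predicted doublets, WT_LW held 10395 cells with a median of 5075 UMIs (unique molecular identifiers, each counting 1 captured RNA molecule) and TLR9agonist_LW held 11811 cells with a median of 5679 UMIs. Levels are given as CPM, the UMIs of a gene per 1000000 UMIs of all genes, summed over the cells of a group in 1 library. All intervals are 95% intervals (exact Poisson for a level, exact conditional binomial for a ratio, Clopper-Pearson for a share of cells) and cover counting error only. The level of a gene was read across cell groups and not against other genes. The T cells (3544 in WT_LW and 3904 in TLR9agonist_LW) were gated by genes that are not members: Treg-gated by Foxp3, γδT17-gated by at least 2 of a set of 5 γδT17 markers that includes Cd163l1, Blk, Sox13 and Il23r, without Cd4 and Cd8b1, then NK-gated, CD8-gated and CD4-gated cells, and the rest as ungated. Each gate holds its own gate genes by definition, so their presence does not test the gate. Foxp3, Il2ra and Ikzf2 together reached 2156 and 2590.5 CPM in Treg-gated cells of WT_LW and TLR9agonist_LW. With Foxp3 at 0 by the gate, the sum was 191 and 190 in CD4-gated and 178 and 141 in CD8-gated cells. It was 696 and 1120 in γδT17-gated, 442 and 463 in NK-gated and 308 and 748 in ungated cells. Macrophage and dendritic clusters were named from marker genes with "-like" added. The 2 libraries shared 30 barcodes among the cells used, and leaving those cells out kept all 11 ratios between libraries given below for the 2 cell classes within their counting error.

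**Figure D1:**
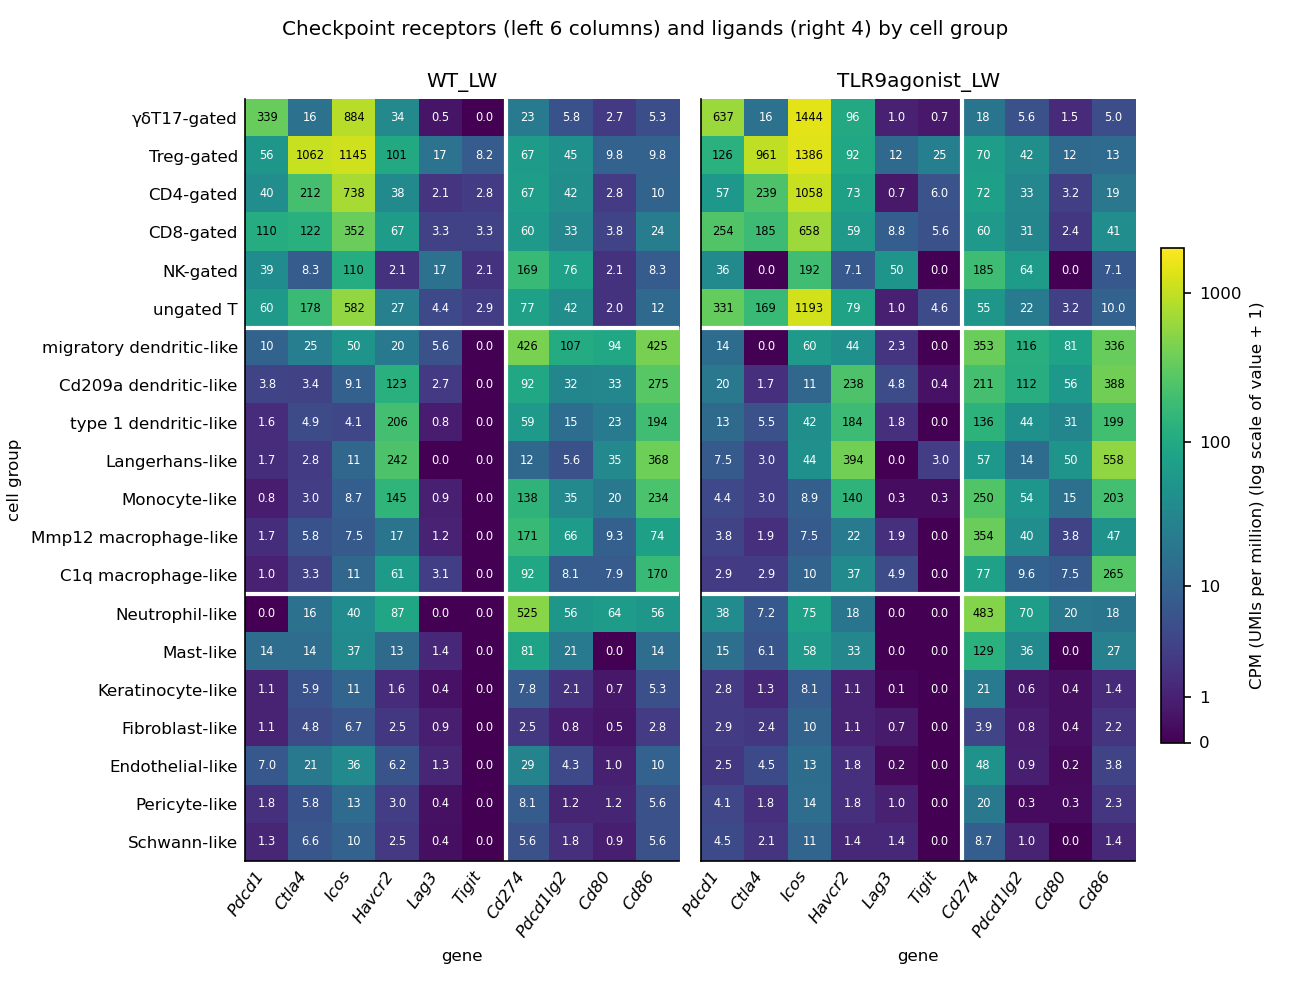
CPM of the 6 receptors and 4 ligands (columns) in 20 cell groups (rows) of WT_LW (left) and TLR9agonist_LW (right), with the value printed in each cell and a colour scale that is logarithmic in the value plus 1. Each column is read downwards: Pdcd1 stood highest in γδT17-gated cells (339 and 637), Ctla4 in Treg-gated cells (1062 and 961) and Cd274 in neutrophil-like cells (525 and 483). For Cd274 in WT_LW the intervals of neutrophil-like and migratory dendritic-like cells overlapped.

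In T cells, 4 receptors were higher in TLR9agonist_LW and 2, Ctla4 and Lag3, were lower. Of the 6, all of which had at least 50 UMIs in T cells, 4 were at least 1.5-fold higher (Pdcd1, Icos, Havcr2 and Tigit) and 1 was at least 1.5-fold lower (Lag3). Tigit was under that fold with cells thinned to 1500 UMIs (log2 0.34) and without the T sub-cluster led by Ermn and Il1r2 described below (log2 0.56), which leaves 3 higher, and in both settings Lag3 (log2 -0.49 in each) was under it too. For comparison, 8.88% of the 11728 genes with at least 50 UMIs in T cells were higher by that fold and 29.8% were lower. The median log2 ratio of the receptors, TLR9agonist_LW over WT_LW, was 0.75 against -0.29 over all those genes. The median gene with at least 200 UMIs moved by -0.26 in T cells and likewise by -0.26 in macrophages and dendritic cells. With that gene set to 0, 15% of the genes in T cells were higher and 16.3% lower, the same 4 receptors were higher and none was lower.

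Pdcd1 showed the largest difference of the receptors in T cells. It went from 86.7 CPM (82.4 to 91.2, 1505 UMIs) in WT_LW to 321 (313 to 330, 6033 UMIs) in TLR9agonist_LW, a log2 ratio of 1.89 (1.81 to 1.97) or 3.71-fold. In WT_LW its level was 339 in γδT17-gated cells, 110 in CD8-gated, 60.0 in ungated, 55.7 in Treg-gated, 40.3 in CD4-gated and 39.3 in NK-gated cells. The intervals of the ungated and Treg-gated cells overlapped, and that of the NK-gated cells overlapped those of the CD4-gated, Treg-gated and ungated cells, whereas the γδT17-gated cells stood 6.06-fold above the other T cells. In TLR9agonist_LW the order was 637 in γδT17-gated cells, 331 in ungated, 254 in CD8-gated, 126 in Treg-gated, 56.9 in CD4-gated and 35.6 in NK-gated cells, the last from only 5 UMIs. Here the γδT17-gated cells stood 3.72-fold above the other T cells. Of all genes tested in both libraries, 2.18% were at least 2-fold higher in γδT17-gated cells than in other T cells in each of them, and Pdcd1 was the 1 receptor that was.

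Pdcd1 was higher in TLR9agonist_LW in all subsets but the NK-gated cells, by ratios of different size; whether these sizes differ between subsets was not tested. The ratio was 1.88-fold in γδT17-gated cells (log2 0.91, 0.79 to 1.03), 2.26-fold in Treg-gated cells (log2 1.18, 0.81 to 1.55), 2.30-fold in CD8-gated cells (log2 1.20, 0.95 to 1.45) and 1.41-fold in CD4-gated cells (log2 0.50, 0.27 to 0.73). It was widest in the ungated T cells, at 5.52-fold (log2 2.47, 2.25 to 2.68). The γδT17 markers moved with that last value: Cd163l1, Blk, Sox13, Il23r and Il17a, none of them at 0, summed to 209 CPM in the ungated T cells of WT_LW and to 6219 in those of TLR9agonist_LW, and the part of this in the Pdcd1 value was not tested. γδT17-gated cells made up 12.8% of the T cells in WT_LW and 34.5% in TLR9agonist_LW, and they held 42.5% and 63.9% of the Pdcd1 UMIs of T cells. With the gated subsets and the ungated cells weighted to their shares of the T cell UMIs in WT_LW, the ratio of Pdcd1 over all T cells was 2.36-fold. The ungated cells count as 1 group here, so this weighting does not adjust for a change of make-up within them.

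Sub-clusters of the T cells, named by their leading genes, gave a finer scale. Pdcd1 went from 441 to 568 CPM in the γδT17 sub-cluster led by Zbtb16 and Arl5c, and from 234 to 312 in that led by Rhobtb1 and Cdh10. A further sub-cluster, led by Npnt, Nlrp3 and Il17f, held 1 cell of WT_LW and 888 cells of TLR9agonist_LW, and its Pdcd1 level in TLR9agonist_LW was 747 (721 to 773), above that of the other 2. A T sub-cluster led by Ermn, Il1r2 and Ntrk3, with 33 and 894 cells, had 34.8 and 39.9. It stayed unnamed because markers of other cell classes were among its top genes, and without it the log2 ratio of Pdcd1 in T cells was 2.24. Pdcd1 was not higher in TLR9agonist_LW in every sub-cluster: in that led by Ifitm1, Ifitm2 and Fasl it was 263 from 27 UMIs of 31 cells in WT_LW and 141 from 226 UMIs of 432 cells in TLR9agonist_LW.

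The share of cells with a Pdcd1 UMI had the same direction. Every cell was thinned to 1500 UMIs for this, which left out 183 T cells of WT_LW and 121 of TLR9agonist_LW, and 65 and 6 keratinocyte-like cells, as too shallow. Among γδT17-gated cells, 32.8% in WT_LW (28.3 to 37.5) and 57.3% in TLR9agonist_LW (54.6 to 60.0) then had a Pdcd1 UMI. Unthinned, these shares were 55.8% and 78.3% at median depths of 4026.5 and 4369 UMIs. Keratinocyte-like cells, which should lack the gene, gave a reading of the free RNA in the droplets. After thinning it was 0 of 509 cells in WT_LW, where 3 cells would be 0.589%, and 0.338% in TLR9agonist_LW. Unthinned, the shares were 1.74% and 5.04% at median depths of 10183.5 and 23207.5 UMIs. Fibroblast-like cells gave 0 of 781 cells and 0.324%. Both γδT17 shares were above those of these 2 cell types. Keratinocyte-like and fibroblast-like cells were deeper than γδT17-gated cells, so their thinned shares can understate the free RNA of T cells. In the γδT17-gated cells, summed markers of other cell types also differed between the libraries, from 77.9 to 1879 CPM for the neutrophil genes S100a8, S100a9 and Retnlg (1 of the 3 at 0 in both), from 267 to 795 for Krt5, Krt14 and Krt6a, and from 257 to 123 for Lyz2, C1qa and Csf1r. The Pdcd1 level of keratinocyte-like cells was 1.09 and 2.75 CPM. Neutrophil-like cells, which are shallow (median 2145 and 2328.5 UMIs), had 0 UMIs in WT_LW and 37.7 CPM (21 UMIs) in TLR9agonist_LW, and mast-like cells had 14.3 and 15.3 CPM, so the NK-gated value of 35.6 was not above these.

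**Figure D2:**
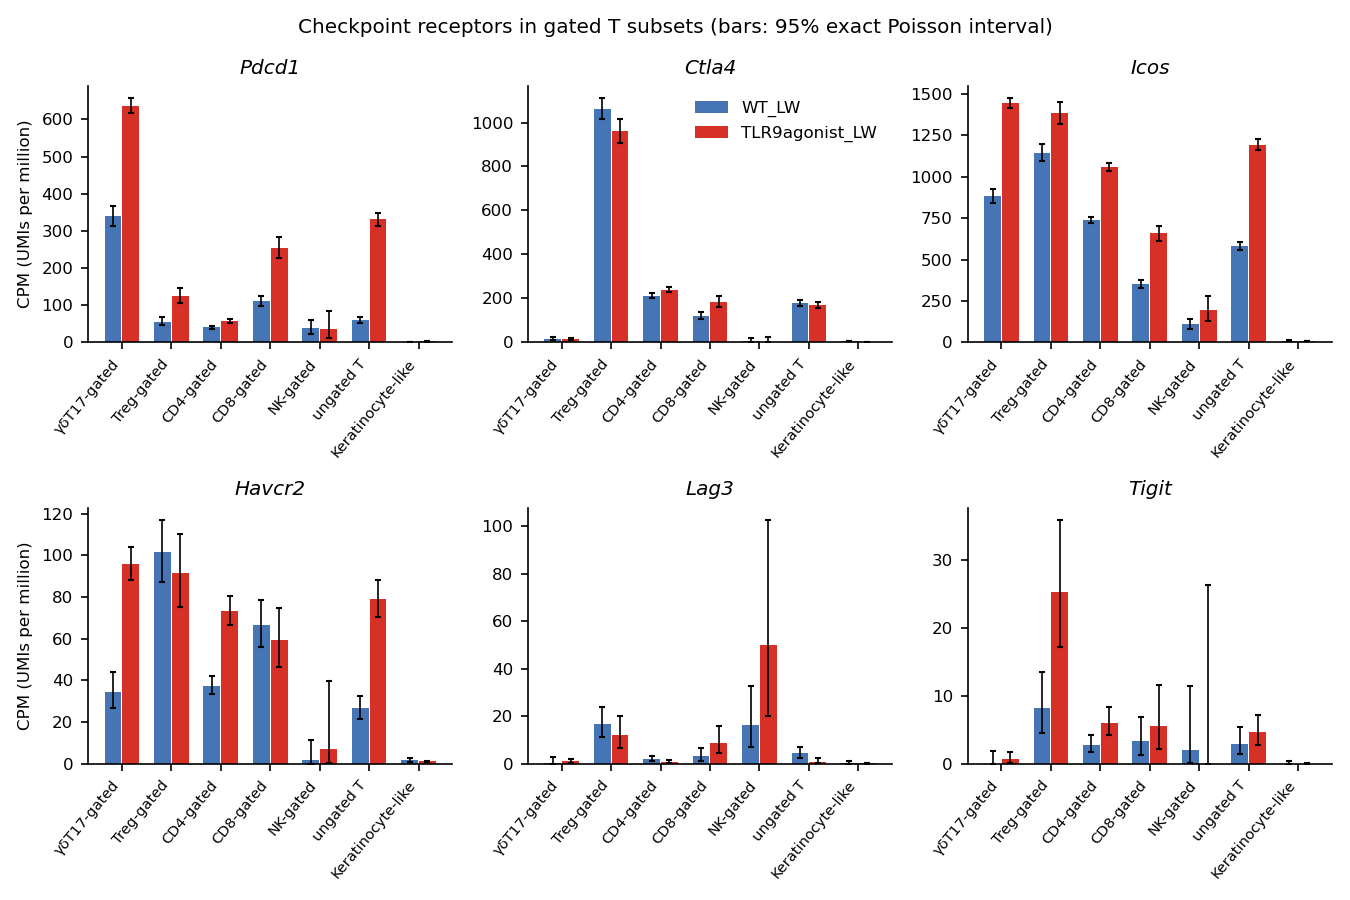
CPM (y axis) of the 6 receptors in gated T subsets and, as background, keratinocyte-like cells (x axis) of WT_LW (blue) and TLR9agonist_LW (red); bars are levels of 1 library each and error bars are exact Poisson 95% intervals. Pdcd1 stood higher in TLR9agonist_LW in the γδT17, Treg, CD4, CD8 and ungated groups, and Ctla4 was concentrated in Treg-gated cells of both libraries.

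Icos followed Pdcd1 in direction, with smaller ratios. Its level in T cells was 702 CPM (12174 UMIs) in WT_LW and 1200.3 (22527 UMIs) in TLR9agonist_LW, which is 1.71-fold (log2 0.77, 0.74 to 0.81). In WT_LW it was 1145 in Treg-gated cells, 884 in γδT17-gated, 738 in CD4-gated, 582 in ungated, 352 in CD8-gated and 110 in NK-gated cells, and these intervals did not overlap. In TLR9agonist_LW, γδT17-gated cells reached 1444 and Treg-gated cells 1386, with overlapping intervals, ahead of 1193 in ungated, 1058 in CD4-gated, 658 in CD8-gated and 192 in NK-gated cells. The Treg-gated cells, 1.76-fold above other T cells in WT_LW, were thus 1.17-fold above them in TLR9agonist_LW. By subset, the ratio between libraries was 2.05-fold in ungated, 1.87-fold in CD8-gated and 1.76-fold in NK-gated cells, the last from 53 and 27 UMIs. It was 1.63-fold in γδT17-gated, 1.43-fold in CD4-gated and 1.21-fold in Treg-gated cells. After thinning, 50.8% of T cells in WT_LW and 71.0% in TLR9agonist_LW had an Icos UMI (72.8% and 87.6% unthinned). Among the deeper keratinocyte-like cells the shares were 1.77% and 1.01% (9.41% and 12.3% unthinned). Icos was 39.7 and 75.4 CPM in the shallow neutrophil-like cells and 37.1 and 58.2 in mast-like cells.

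Ctla4 behaved differently from both. In T cells it was 257 CPM (4463 UMIs) in WT_LW and 193 (3628 UMIs) in TLR9agonist_LW, a log2 ratio of -0.41 (-0.48 to -0.35). This ratio became -0.15 relative to the median gene. It turned to 0.037 with the gated subsets and the ungated cells weighted to their WT_LW shares. The level of Ctla4 depended far more on the subset than on the library. Treg-gated cells had 1062 and 961, CD4-gated cells 212 and 239, ungated cells 178 and 169, CD8-gated cells 122 and 185, and γδT17-gated cells 16.4 and 15.9. The 2 Treg-gated levels differed by a log2 ratio of -0.14 (-0.25 to -0.04), and the CD8-gated cells showed the widest difference (log2 0.60, 0.33 to 0.86, 1.51-fold). NK-gated cells had 4 UMIs in WT_LW and none in TLR9agonist_LW. Treg-gated cells held 43.6% of the Ctla4 UMIs of T cells in WT_LW and 32.4% in TLR9agonist_LW, while they were 9.23% and 5.38% of the T cells. After thinning, 63.9% and 62.4% of Treg-gated cells had a Ctla4 UMI (81.3% and 86.7% unthinned). Among the deeper keratinocyte-like cells the shares were 0.982% and 0.507% (6.45% and 3.03% unthinned). In CPM, Ctla4 was 5.87 and 1.30 in keratinocyte-like, 14.3 and 6.13 in mast-like, 15.9 and 7.18 in neutrophil-like and 20.5 and 4.50 in endothelial-like cells. The γδT17-gated level of WT_LW was thus close to that of the last 3 groups.

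In Treg-gated cells 3 of the 6 receptors were at least 2-fold above the pooled other T cells in both libraries. Ctla4 was 6.55-fold and 6.88-fold higher in them than in other T cells of WT_LW and TLR9agonist_LW, Lag3 5.58-fold and 6.72-fold, and Tigit 3.26-fold and 6.73-fold. Among all genes with at least 50 UMIs in T cells of each library, 2.02% were at least 2-fold higher in Treg-gated cells in both. Lag3, with 47 UMIs in the T cells of TLR9agonist_LW, was not among those genes, so this share stands beside Ctla4 and Tigit only. Lag3 and Tigit rested on 15 to 31 UMIs in Treg-gated cells, and Lag3 in NK-gated cells was not below that in Treg-gated cells beyond counting error in either library. Pdcd1 was lower in Treg-gated cells than in other T cells, with log2 ratios of -0.70 and -1.41, but higher than in CD4-gated cells, with 0.47 and 1.14. The other T cells include the γδT17-gated cells, whose share differed between the libraries. Against CD4-gated cells alone, Ctla4 was 5.01-fold and 4.02-fold higher in Treg-gated cells and Tigit 2.97-fold and 4.22-fold. Lag3 was 8.06-fold and 18.4-fold higher, from 16 and 4 UMIs in CD4-gated cells.

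Havcr2, the gene of TIM-3, was measured in T cells and in antigen-presenting cells. In T cells it went from 44.3 CPM (769 UMIs) to 81.7 (1533 UMIs), which is 1.84-fold (log2 0.88, 0.76 to 1.01). Among the named gates with more than 1 UMI in each library, the difference was widest in γδT17-gated cells, from 34.5 to 96.0 (log2 1.48, 1.11 to 1.87), and next in CD4-gated cells, from 37.5 to 73.5 (log2 0.97, 0.75 to 1.19). Ungated T cells went from 26.6 to 79.0 (log2 1.57, 1.23 to 1.92). In Treg-gated cells (101 and 91.5) and CD8-gated cells (66.5 and 59.4) the intervals of the 2 libraries overlapped. Treg-gated cells therefore had the highest T cell level in WT_LW, and in TLR9agonist_LW their interval overlapped that of γδT17-gated cells. In macrophages and dendritic cells together Havcr2 was 112 and 125 (log2 0.15, 0.06 to 0.25). Langerhans-like cells led, with 242 in WT_LW and 394 in TLR9agonist_LW (log2 0.70, 0.48 to 0.93), and Cd209a dendritic-like cells went from 123 to 238 (log2 0.95, 0.75 to 1.16). Type 1 dendritic-like cells had 206 and 184 and monocyte-like cells 145 and 140, with overlapping intervals. C1q macrophage-like cells ran the other way, from 61.0 to 36.6 (log2 -0.74, -1.05 to -0.43).

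Lag3 and Tigit were sparse. Lag3 had 78 UMIs in the T cells of WT_LW (4.50 CPM) and 47 in those of TLR9agonist_LW (2.50 CPM). Its log2 ratio of -0.84 (-1.40 to -0.30) was -0.048 with the gated subsets and the ungated cells weighted to their WT_LW shares. Lag3 was 16.9 and 12.3 CPM in Treg-gated cells and 16.5 and 49.9 in NK-gated cells, the latter from 8 and 7 UMIs. Tigit went from 3.11 CPM (54 UMIs) to 5.17 (97 UMIs), a log2 ratio of 0.73 (0.24 to 1.24). In Treg-gated cells it went from 8.18 to 25.3 (15 and 31 UMIs, log2 1.63, 0.70 to 2.63). Keratinocyte-like and fibroblast-like cells had no Tigit UMI in either library.

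By subset, 3 of the 4 receptors with at least 50 UMIs were at least 1.5-fold higher in TLR9agonist_LW in γδT17-gated cells (Pdcd1, Icos and Havcr2, where 10.8% of all genes were higher and 35.5% lower) and 3 of 4 in CD8-gated cells (Pdcd1, Ctla4 and Icos, against 7.25% higher and 19.8% lower). In CD4-gated cells 2 of 5 were (Tigit and Havcr2, against 7.04% higher and 22.5% lower), and with the median gene set to 0 these were 4 of 5. In Treg-gated cells 1 of 4 was, Pdcd1, against 7.54% of all genes higher and 16.1% lower. No receptor with 50 UMIs was lower by that fold in any of these 4 subsets.

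More T cells of TLR9agonist_LW carried UMIs of several receptors at once. At 1500 UMIs per cell, 20.9% of the T cells in WT_LW (19.5 to 22.3) and 40.8% in TLR9agonist_LW (39.2 to 42.4) had UMIs of at least 2 of the 6. In γδT17-gated cells the shares were 24.1% and 52.5%, and the pair of Pdcd1 and Icos was in 21.5% and 46.5% of cells. In Treg-gated cells they were 58.5% and 66.3%, with overlapping intervals, and the pair of Ctla4 and Icos was in 50.5% and 54.1%. CD8-gated cells went from 13.4% to 30.3% and CD4-gated cells from 18.0% to 26.4%. Pdcd1 and Ctla4 together were found in 0.708% and 0.679% of γδT17-gated cells.

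The ligands of PD-1 were both higher in the macrophages and dendritic cells of TLR9agonist_LW. Cd274 went from 115 CPM (2223 UMIs) to 187 (2523 UMIs), 1.62-fold (log2 0.70, 0.61 to 0.78), and Pdcd1lg2 from 28.5 (550 UMIs) to 50.6 (684 UMIs), 1.78-fold (log2 0.83, 0.66 to 0.99). Cd86 went from 218 to 263 (log2 0.27, 0.20 to 0.33) and Cd80 from 23.7 to 26.4 (log2 0.15, -0.05 to 0.36). Thus 2 of 4 ligands were at least 1.5-fold higher, where 7.1% of the 11194 genes with at least 50 UMIs were higher and 18.9% lower by that fold (11.9% and 6.86% with the median gene set to 0). Cd274 was under 1.5-fold with cells thinned to 1500 UMIs (log2 0.43) and with equal weight per cell (log2 0.47), which leaves 1 of 4. The median log2 ratio of the 4 was 0.48 against -0.25 over all those genes.

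Cd274 was highest outside that class, in neutrophil-like cells, at 525 CPM in WT_LW (406 to 668, 66 UMIs of 51 cells) and 483 in TLR9agonist_LW (427 to 544, 269 UMIs of 234 cells). Migratory dendritic-like cells followed in WT_LW with 426, and their interval overlapped that of the neutrophil-like cells. After them came 171 in Mmp12 macrophage-like, 138 in monocyte-like, 92.2 in Cd209a dendritic-like, 92.1 in C1q macrophage-like, 58.5 in type 1 dendritic-like and 11.8 in Langerhans-like cells. Of these 7 types, 5 had more Cd274 in TLR9agonist_LW. There, Mmp12 macrophage-like cells reached 354 (2.06-fold), beside 353 in migratory dendritic-like cells, and monocyte-like cells 250 (1.81-fold), Cd209a dendritic-like cells 211 (2.29-fold) and type 1 dendritic-like cells 136 (2.32-fold). Langerhans-like cells went to 57.3 from 38 UMIs (log2 2.28, 1.47 to 3.12). Migratory dendritic-like cells (log2 -0.27, -0.49 to -0.05) and C1q macrophage-like cells (77.0, log2 -0.26, -0.48 to -0.03) were lower in TLR9agonist_LW. After thinning, 15.4% of the monocyte-like cells in WT_LW and 27.0% in TLR9agonist_LW had a Cd274 UMI (47.7% and 67.3% unthinned), against 1.15% and 0.741% of fibroblast-like cells (4.08% and 4.72% unthinned).

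Different clusters held these cell types in the 2 libraries. Of the C1q macrophage-like cells, 303 of 404 in WT_LW were in a cluster led by Slc40a1, Syngr1 and Apoe, while of 493 in TLR9agonist_LW 217 were in a cluster led by Ccl8 and Iigp1 and 218 in one led by Ccl7 and Serpina3f. Monocyte-like cells of WT_LW were led by Rab44 and Ly6i or Ifitm6 and Ly6c2, and 326 of 391 in TLR9agonist_LW by Slpi, Thbs1 and Ptgs2. Of the Cd209a dendritic-like cells, 231 of 237 in WT_LW were in a cluster led by Cd209e and Cd209d and 180 of 223 in TLR9agonist_LW in one led by Satb1 and Klri2.

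Pdcd1lg2 showed its widest difference in the Cd209a dendritic-like cells, from 31.6 CPM (83 UMIs) to 112 (256 UMIs), 3.54-fold (log2 1.82, 1.46 to 2.20). Those cells held 15.1% of its UMIs in macrophages and dendritic cells in WT_LW and 37.4% in TLR9agonist_LW. Type 1 dendritic-like cells went from 14.6 to 44.3 (log2 1.60, 0.79 to 2.47) and monocyte-like cells from 35.3 to 53.7 (log2 0.61, 0.30 to 0.91). Mmp12 macrophage-like cells went from 65.6 to 40.4 (log2 -0.70, -1.24 to -0.18), the reverse of Cd274 in the same cells. Migratory dendritic-like cells had 107 and 116 and C1q macrophage-like cells 8.14 and 9.60, with overlapping intervals. In the Cd209a dendritic-like cells the migratory markers Ccr7, Fscn1 and Ccl22, none at 0, moved with this result, from 292 to 1173 CPM in sum, and their part in it was not tested. In these cells 3 of the 4 ligands were at least 1.5-fold higher (Cd274, Pdcd1lg2 and Cd80, against 8.18% of all genes higher and 32.2% lower), and in monocyte-like cells 2 were (Cd274 and Pdcd1lg2, against 6.84% higher and 38.7% lower).

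**Figure D3:**
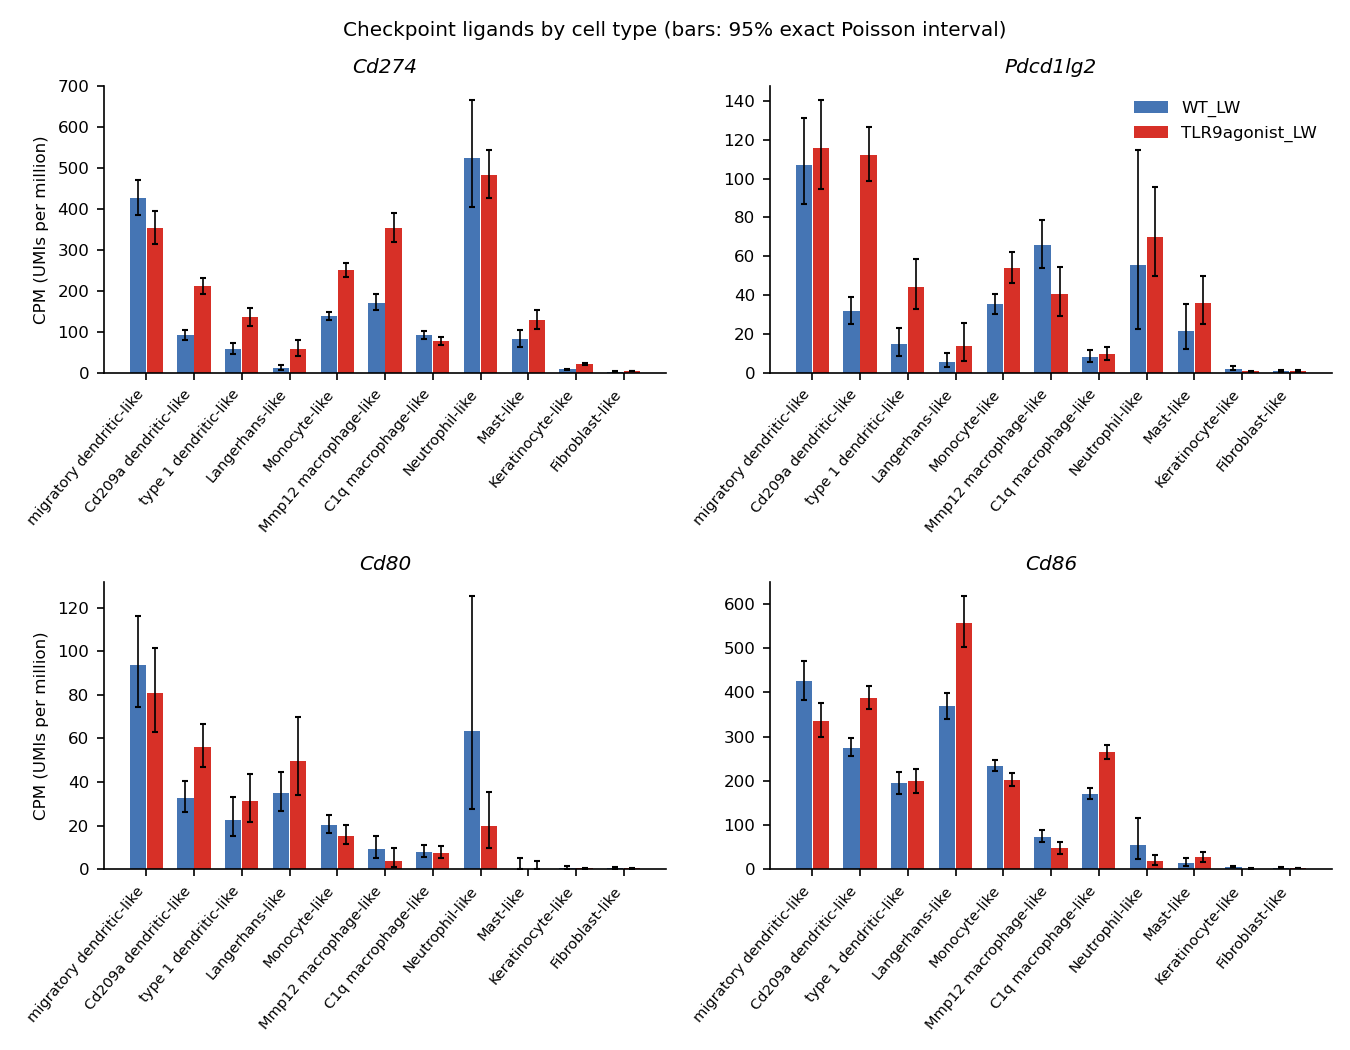
CPM (y axis) of the 4 ligands by cell type (x axis) in WT_LW (blue) and TLR9agonist_LW (red), 1 library each, with exact Poisson 95% intervals. Pdcd1lg2 in Cd209a dendritic-like cells went from 31.6 to 112, whereas in migratory dendritic-like cells it was 107 and 116.

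CD80 and CD86, the shared ligands of CD28 and CTLA-4, differed less between the libraries. Cd80 was highest in migratory dendritic-like cells, with 93.6 CPM in WT_LW and 80.7 in TLR9agonist_LW, and went from 32.8 to 56.0 in Cd209a dendritic-like cells (log2 0.77, 0.37 to 1.18). Neutrophil-like cells had 8 and 11 UMIs (63.6 and 19.7 CPM). Cd86 was highest in migratory dendritic-like cells of WT_LW (425), with Langerhans-like cells next (368), and in TLR9agonist_LW Langerhans-like cells led with 558 (log2 0.60, 0.41 to 0.79), ahead of Cd209a dendritic-like cells with 388 (from 275, log2 0.50, 0.35 to 0.64) and migratory dendritic-like cells with 336 (log2 -0.34, -0.56 to -0.12). C1q macrophage-like cells went from 170 to 265 (1.56-fold), the 1 ligand past 1.5-fold there, where 8.25% of all genes were higher and 12.3% lower. Monocyte-like cells went from 234 to 203, a log2 ratio of -0.21 (-0.35 to -0.07) that was 0.16 relative to their median gene.

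Migratory dendritic-like cells carried 3 of the 4 ligands at 2-fold or more above other macrophages and dendritic cells in both libraries. Cd274 was 4.25-fold and 2.02-fold higher, and the count was 2 with doublets kept, without Harmony and with a gate on Ccr7 and Fscn1. Pdcd1lg2 was 4.33-fold and 2.51-fold higher, and Cd80 4.60-fold and 3.57-fold. Cd86 was 2.04-fold higher in WT_LW and 1.30-fold in TLR9agonist_LW. Of all genes tested in both, 6.26% were at least 2-fold higher in each. The cluster was found without the members among its variable genes, and the comparison is a description.

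**Figure D4:**
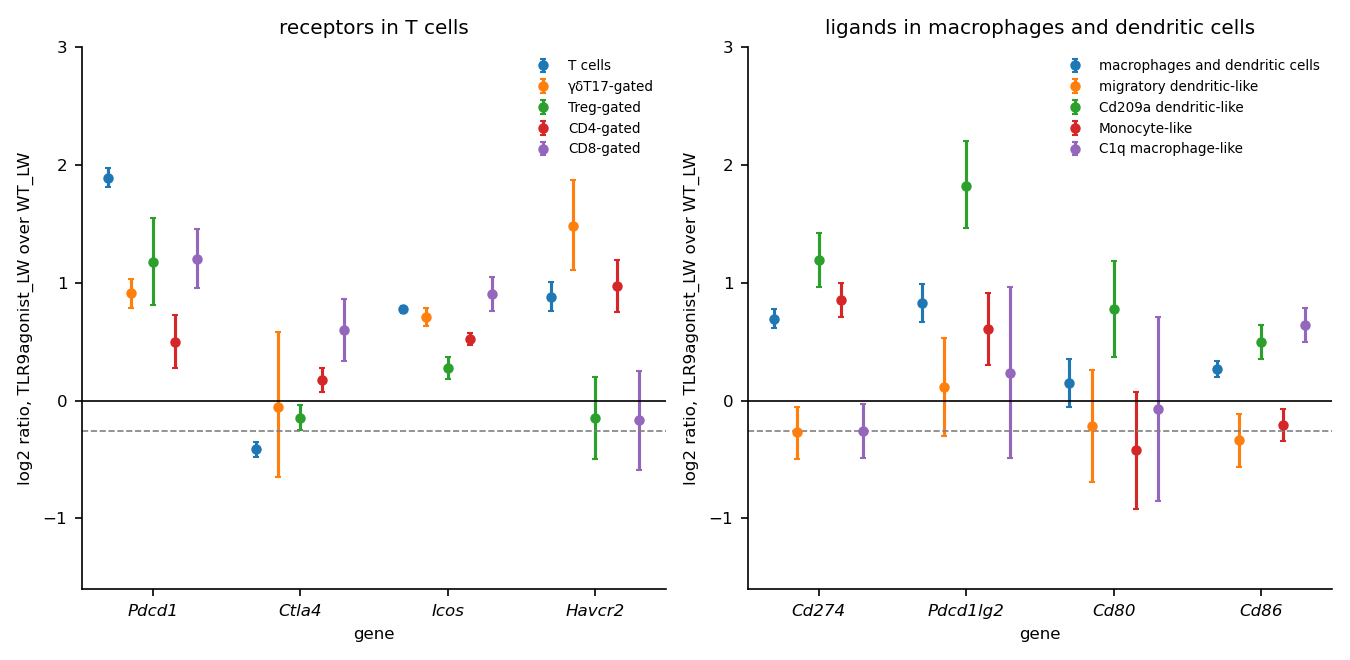
Log2 ratio, TLR9agonist_LW over WT_LW (y axis), of 4 receptors in T cells and 4 gated subsets (left) and of the 4 ligands in macrophages and dendritic cells and 4 of their cell types (right), with 95% counting intervals; the solid line is no difference and the dashed line the median gene of the whole class (-0.26). Pdcd1 in all T cells (1.89) stood above its value in each of the 4 plotted subsets, and Ctla4 in all T cells (-0.41) below its value in each.

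The PD-1 ligands were also read in cells that are not antigen-presenting. In keratinocyte-like cells Cd274 went from 7.83 CPM (72 UMIs) to 21.4 (591 UMIs), 2.73-fold (log2 1.45, 1.10 to 1.82), the 1 ligand there that was higher by 1.5-fold, as 5.34% of all genes were. This lay in the cluster led by Krt1, Krt6b and Krt10, with 8.08 and 26.9, and not in that led by Krt15 and Col17a1, with 7.42 and 6.28 and overlapping intervals. After thinning, 1.18% of keratinocyte-like cells in WT_LW and 3.38% in TLR9agonist_LW had a Cd274 UMI (9.93% and 20.6% unthinned), beside 1.15% and 0.741% in fibroblast-like cells. The neutrophil markers S100a8, S100a9 and Retnlg, which keratinocytes of wounds share in part, summed to 3533 and 16806 CPM in them, and were not tested as a part of this result. Cd86 was lower there by more than 1.5-fold, as 44.2% of all genes were, with 5.33 and 1.45 CPM beside 2.81 and 2.23 in fibroblast-like cells. The endothelial-like cells differed in depth, with medians of 2256 and 7828 UMIs. Of them, 758 of 1389 in WT_LW and 85 of 480 in TLR9agonist_LW lay in a cluster with a median of 1089 UMIs. Endothelial-like cells had 29.1 and 47.7 of Cd274 (log2 0.71, 0.42 to 1.01), pericyte-like cells 8.15 and 19.9, and mast-like cells 81.4 and 129. In T cells the direction was opposite, with Cd274 at 66.2 and 51.0 (log2 -0.37, -0.50 to -0.25) and Pdcd1lg2 at 38.0 and 22.3 (log2 -0.77, -0.95 to -0.59). Within Treg-gated, CD4-gated and CD8-gated cells, Cd274 gave overlapping intervals (66.6 and 70.3, 67.2 and 72.5, 60.3 and 60.2). For γδT17-gated (22.8 and 18.0) and NK-gated cells (169 and 185) the interval of the Cd274 ratio included 0. In ungated T cells Cd274 was lower (76.7 and 55.4, log2 -0.47, -0.73 to -0.21). γδT17-gated cells went from 12.8% to 34.5% of the T cells, and the part of this in the Cd274 ratio of all T cells was not tested. For Pdcd1lg2 the interval of the ratio included 0 in Treg-gated (44.7 and 41.7), CD8-gated (32.8 and 31.3), NK-gated (76.5 and 64.1) and γδT17-gated cells (5.83 and 5.62). It was lower in CD4-gated (41.6 and 32.9, log2 -0.34) and ungated cells (42.1 and 21.6, log2 -0.96).

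Further genes of the pathways were taken from a list written for this purpose. On the T cell side, 24 of 25 genes had a row and at least 50 UMIs in T cells. Of these, 4 were at least 1.5-fold higher in TLR9agonist_LW and 10 lower, where 8.88% and 29.8% of all genes were, with a median log2 ratio of -0.42 against -0.29 over all genes. The 3 highest were Tnfrsf9, the gene of the costimulatory receptor 4-1BB (128 to 607 CPM, log2 2.24), Batf, a transcription factor of activated T cells (106 to 202, log2 0.94), and Cd40lg, the CD40 ligand (43.5 to 75.6, log2 0.80). The lowest were Ptpn6, the phosphatase SHP-1 that acts downstream of inhibitory receptors (60.5 to 25.9, log2 -1.22), Cd160 (log2 -1.22) and Cd27, a costimulatory receptor (77.8 to 35.0, log2 -1.15). These ratios are over all T cells and were not split by subset. γδT17-gated cells went from 12.8% to 34.5% of the T cells, and the part of this change of mix in the ratios was not tested. On the ligand side, 19 of 25 genes had 50 UMIs in macrophages and dendritic cells, 3 higher and 2 lower by 1.5-fold, where 7.1% and 18.9% of all genes were, with a median of -0.19 against -0.25. The highest were Cd70, the ligand of CD27 (1.71 to 4.29, log2 1.33), Il10, an anti-inflammatory cytokine (37.0 to 81.2, log2 1.13), and Tnfsf4, the OX40 ligand (2.75 to 5.11, log2 0.89). Lowest were Cd200r1, an inhibitory receptor of myeloid cells (22.9 to 11.5, log2 -0.99), Cd276 (11.4 to 7.25, log2 -0.65) and Icosl, the ligand of ICOS (11.1 to 8.07, log2 -0.46).

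Across 20 cell groups in the 2 libraries, 40 points that share libraries and differ in depth, the genes whose log2 levels ran most like each member were listed as a description. For Pdcd1 they were Ikzf3 (Pearson r 0.93), Icos (0.91) and Chd2 (0.90), and for Icos they were Cxcr6 (0.96), Sh2d2a (0.94) and Ikzf3 (0.94). Ctla4 ran with Cd5 (0.94), Cd6 (0.93) and Gm8369 (0.91), Havcr2 with Cytip (0.86), Grb2 (0.86) and Edem1 (0.85), and the sparse Tigit with Ubash3a (0.88), Fam169b (0.87) and Tff1 (0.86). Lag3 ran with Tapbpl (0.79), Gpr18 (0.75) and Cd27 (0.70). Among the ligands, Cd274 and Pdcd1lg2, the chromosome 19 neighbours, had each other as the most alike gene (0.88) of 13351 compared, followed by Lilr4b (0.85) and Lilrb4a (0.82) for Cd274 and by Malt1 (0.85) and Dusp5 (0.85) for Pdcd1lg2. Cd80 ran with Gapt (0.90), Card9 (0.87) and Cd86 (0.85), and Cd86 with the MHC class II genes Cd74 (0.93), H2-Aa (0.93) and H2-Eb1 (0.93).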

How the data were processed

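The authors deposited, per library, a matrix of raw UMI counts by gene and cell. The file headers name Cell Ranger 4.0.0. The submitters' processing notes also name fastp, Seurat and the build mm9, without roles, so gene positions here come from GENCODE M21 on GRCm38 by gene identifier and not from the files. Cells under 500 UMIs, under 300 genes or over 15% mitochondrial UMIs were dropped. Predicted doublets, 1048 in WT_LW and 1395 in TLR9agonist_LW, were removed with an implementation of the Scrublet method. Variable genes (2000 over all cells, 1500 within a class, without the members and the related genes) were reduced to 30 or 20 components, aligned between libraries with an implementation of Harmony and clustered with Leiden at resolution 1 on 20 neighbours. Clusters were named from at least 3 markers, each in at least 10% of cells. T cells were gated by marker UMIs, NK-gated cells by Ncr1, Klrb1c or Klre1 without Cd3d, Cd3e and Cd3g, CD8-gated cells by Cd8a or Cd8b1 without Cd4, and CD4-gated cells by Cd4 or Cd40lg without Cd8a and Cd8b1.

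UMIs were summed over the cells of each group and library and divided by the group's total. Genes needed 50 UMIs for a fold and 200 for the median gene. Each group is 1 library, so no test was made. The ratios between libraries and their intervals were checked on simulated counts, and results were recomputed under 13 planned and 4 added settings. Named were the 10 members, the 3 genes of highest Pearson r with each over log2(CPM + 1), and the 3 highest and 3 lowest related genes on each side. The members, lists and comparisons were chosen with earlier results of these data known. Genes of the T cell receptor itself and 1 marker used in the γδT17 gate are not reported here. Related genes Cd244a, Nectin2 and Nectin3 had no row under those symbols. The tools were Python 3.11.15, leidenalg 0.10.2, igraph 0.11.9, scikit-learn 1.9.0, pandas 2.3.3, numpy 2.4.6, matplotlib 3.10.9 and scipy 1.17.1.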

Additional observations from a re-analysis of the deposited data

Results flagged for a closer look

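For 3 members the ratio of TLR9agonist_LW to WT_LW had opposite signs in the 2 cell classes, which is what drew attention to them. The difference was not tested, as each group is 1 library. Lag3 had a log2 ratio of -0.84 in T cells (78 and 47 UMIs) and 0.72 in macrophages and dendritic cells (32 and 37 UMIs). The first was -0.048 with the gated subsets and the ungated cells weighted to their WT_LW shares. The interval of the second, 0.0004 to 1.45, nearly reached 0. Cd274 had -0.37 in T cells and 0.70 in macrophages and dendritic cells, and relative to the median gene of each class these were -0.11 and 0.96. By T subset the Cd274 interval included 0 in γδT17-gated (log2 -0.34), Treg-gated (0.08), CD4-gated (0.11), CD8-gated (-0.003) and NK-gated cells (0.13). In ungated cells the Cd274 ratio was -0.47. Pdcd1lg2 had -0.77 in T cells and 0.83 in macrophages and dendritic cells, and relative to the median gene of each class these were -0.51 and 1.09. By T subset its interval included 0 in γδT17-gated (log2 -0.05), Treg-gated (-0.10), CD8-gated (-0.07) and NK-gated cells (-0.25). The ratio was -0.34 in CD4-gated and -0.96 in ungated cells.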

How the results depend on the processing

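Each group is 1 library of pooled mice, so intervals hold counting error only, and differences between mice or preparations cannot be told apart from the treatment. No paired analysis was possible because each group has 1 library. Lag3 and Tigit rest on fewer than 100 UMIs per library in T cells, which limits statements on their subsets. Of the values given for single comparisons between libraries or counts, 104 of the recomputed ones stayed close to the reported value, 29 moved out of its counting interval and 1 whose interval excluded 0 changed sign; the cause was not tested. In the order Pdcd1, Ctla4, Icos and Havcr2 in T cells, setting the median gene to 0 gave log2 ratios of 2.15, -0.15, 1.04 and 1.14, and gates on markers without clusters gave 1.47, -0.067, 0.65 and 0.73. Clustering at Leiden resolution 2 gave 2.18 for Pdcd1 and -0.66 for Ctla4, and equal weight per cell gave 1.77 for Pdcd1. In macrophages and dendritic cells, setting the median gene to 0 gave 0.96 for Cd274, 1.09 for Pdcd1lg2, 0.41 for Cd80, 0.53 for Cd86 and 0.41 for Havcr2. Thinning to 1500 UMIs gave 0.43 for Cd274, 1.08 for Pdcd1lg2, -0.16 for Cd80, whose reported interval includes 0 and whose sign changed, and 0.36 for Cd86. Equal weight per cell gave 0.47 for Cd274 and 0.027 for Havcr2, and marker gates gave 0.80 for Cd274. The next 3 settings were added after seeing the data, beside leaving out shared barcodes. With T subsets at the WT_LW mix, the ungated cells counted as 1 of them, Pdcd1 was 1.24, Lag3 -0.048, Icos 0.63 and Ctla4 0.037, the last with its sign changed. Without the T sub-cluster led by Ermn and Il1r2, Pdcd1 was 2.24, Ctla4 -0.63 and Icos 0.82. Pdcd1 in Treg-gated cells, lower than in other T cells, was higher than in CD4-gated cells, by 0.47 in WT_LW and 1.14 in TLR9agonist_LW. Over all settings Pdcd1 in T cells ranged from 1.24 to 2.24. The 3 ligands at 2-fold or more in migratory dendritic-like cells became 2 with doublets kept, without Harmony and with a gate on Ccr7 and Fscn1.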

Other observations

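T cells with a UMI of the cycling genes Mki67 or Top2a (950 in WT_LW and 707 in TLR9agonist_LW) differed from the other T cells in their receptors. They had less Pdcd1, with 55.3 and 185 CPM against 107 and 368 in T cells without such a UMI, while Ctla4 was 302 and 294 against 229 and 159. Within Treg-gated cells Ctla4 was not higher in cycling cells, with 1005 and 954 against 1120.0 and 967, and in CD8-gated cells it was 85.9 and 213 against 137 and 175. Icos was 657 and 1111 in cycling T cells against 730 and 1231 in the rest. Within γδT17-gated cells, Pdcd1 was 247 and 584 in 93 and 172 cycling cells and 372 and 645 in the rest. The cycling cells were deeper, with median UMIs of 5041 and 5325 against 4007.5 and 4336.

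A few members were found outside the cells they are known for. NK-gated cells, which lack Cd3d, Cd3e and Cd3g UMIs by their gate, had 169 and 185 CPM of Cd274 (82 and 26 UMIs). Migratory dendritic-like cells had 22 Ctla4 UMIs in WT_LW (24.8 CPM) and 0 in TLR9agonist_LW, where the interval reaches 4.19 CPM. The sum of Cd3d, Cd3e and Cd3g in them was 63.2 and 23.9. Icos in type 1 dendritic-like cells went from 4.06 (5 UMIs) to 42.4 (46 UMIs), while the γδT17 marker sum in them went from 5.69 to 175, and the part of this in the Icos value was not tested.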
